A study of Mus musculus with 6 samples.

Results

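The genes described here were 10 neuronal RNA-binding protein genes, namely *Elavl1*, *Elavl2*, *Elavl3*, *Elavl4*, *Rbfox1*, *Rbfox2*, *Rbfox3*, *Nova1*, *Nova2* and *Ptbp2*, out of 53379 genes with a value. They were measured by RNA-seq in neural stem cells (NSCs) from the E14.5 mouse telencephalic cortex, grown as floating neurospheres with bFGF and EGF. All the cells carried the *Tbl1xr1* flox/flox alleles, in which loxP sites flank 1 exon of a gene for a subunit of the NCOR corepressor complex. Control cells were infected with a lentivirus carrying GFP (control replicates 1, 1_1 and 2). The other cells were infected with Cre (KO replicates 2, 2_2 and 3) and are called here the Cre-labelled libraries. No source tells if the libraries numbered 1 and 1_1, or those numbered 2 and 2_2, came from separate cultures, so the tests measure only the spread between these libraries. The set was chosen by its measured values in the same comparison, because *Elavl4* was higher in the Cre-labelled libraries while other neuron markers were not. The differences of the 10 genes between the groups are therefore given as a description, with no test, and so are those of the neuron markers.

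RNA-binding proteins of these families shape the messages of neurons after transcription. ELAVL (Hu) proteins bind U-rich and AU-rich elements and often stabilize the mRNAs that carry them. ELAVL1 (HuR) is made in nearly all cells, whereas ELAVL2 (HuB), ELAVL3 (HuC) and ELAVL4 (HuD) are best known from neurons. NOVA and RBFOX proteins set alternative splicing through short motifs in introns and exons, and RBFOX3 is the antigen known as NeuN. PTBP2 takes over from its paralog PTBP1 as progenitors become neurons.

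Each value is a normalized count, a read count divided by the size factor of its library. The libraries held 7510615 to 11161497 reads on genes in control and 11893230 to 14828100 in the Cre-labelled libraries, so the control values of low genes rest on fewer reads. Within groups, the libraries differed beyond counting noise, with a chi-square per degree of freedom of 6.37 to 19.7 between control libraries and 17.8 to 40.0 between the Cre-labelled libraries. The targeted gene *Tbl1xr1* was not lower in the Cre-labelled libraries. Its normalized counts were 2522, 2190 and 2721 in control and 3774, 3463 and 2905 in the Cre-labelled libraries. The log2 difference was 0.45 ± 0.14 (SE, limma adjusted p = 0.060). The counts are per gene and were not split by exon, so they do not show whether the floxed exon was removed. For NSCs made in this way and sorted for GFP, the authors report checks by other means. These were genotyping by PCR, *Tbl1xr1* mRNA by RT-qPCR and the protein by Western blot, with both mRNA and protein reported absent.

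The promoters of the 2 genes that stood higher in the Cre-labelled libraries, *Elavl4* and *Nova1*, are shown for context. They are RefSeq windows of GRCm38.p6 from 250 bases before to 50 bases after an annotated start, written 5′ to 3′ along the gene. Capitals mark the E-box letters CAGATG (or its reverse complement CATCTG) and the palindrome CAGCTG, which proneural bHLH factors are known to favour. The upstream *Elavl4* window lies at chr4:110351862-110352161 on the minus strand, an inner *Elavl4* window at chr4:110287478-110287777 on the minus strand, and the *Nova1* window at chr12:46818718-46819017 on the minus strand.
Elavl4, upstream start: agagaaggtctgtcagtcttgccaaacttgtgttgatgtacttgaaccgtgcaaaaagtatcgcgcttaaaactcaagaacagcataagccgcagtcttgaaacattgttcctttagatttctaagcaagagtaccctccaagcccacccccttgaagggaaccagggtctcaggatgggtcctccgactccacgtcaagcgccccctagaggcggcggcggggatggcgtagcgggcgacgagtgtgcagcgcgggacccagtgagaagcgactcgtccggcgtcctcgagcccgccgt
Elavl4, inner start: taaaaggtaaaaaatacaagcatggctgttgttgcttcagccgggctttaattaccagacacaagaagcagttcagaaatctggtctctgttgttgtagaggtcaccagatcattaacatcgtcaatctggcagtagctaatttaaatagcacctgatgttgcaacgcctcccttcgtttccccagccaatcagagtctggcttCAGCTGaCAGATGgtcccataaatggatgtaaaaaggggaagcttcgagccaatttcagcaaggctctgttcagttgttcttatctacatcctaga
Nova1: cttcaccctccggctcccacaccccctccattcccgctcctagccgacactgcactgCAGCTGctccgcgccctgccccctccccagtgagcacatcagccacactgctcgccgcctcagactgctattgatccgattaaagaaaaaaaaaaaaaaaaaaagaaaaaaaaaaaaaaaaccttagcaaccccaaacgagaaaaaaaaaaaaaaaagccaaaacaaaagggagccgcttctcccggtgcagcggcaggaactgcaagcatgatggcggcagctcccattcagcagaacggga
The upstream *Elavl4* window held 23 CG pairs and neither motif, against a median of 7 CG pairs over 32851 promoter windows. The inner window shown held 5 CG pairs and, 1 base apart, 1 copy of each motif. Further inner *Elavl4* windows are not shown. The window at chr4:110287462-110287761 overlaps the shown one and held 6 CG pairs and 1 copy of each motif. The window at chr4:110286785-110287084 held 4 CG pairs and 1 copy of the first motif, without the palindrome. The *Nova1* window held 14 CG pairs and 1 copy of the palindrome. On either strand, the first motif was found in 17.2% of all windows, the palindrome in 16.3% and at least 1 of them in 30.6%. Of the 18 windows of 9 of the 10 genes, 9 held at least 1 of the motifs. Several of these windows overlap each other, and a match of letters is not a binding site. Gene counts cannot tell which *Elavl4* start the transcripts came from.

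*Elavl4*, whose product stabilizes mRNAs of growing and adult neurons, had the largest difference of the 10. Its normalized counts were 99.1, 74.6 and 116 in the control libraries, in the order given above, and 470, 453 and 515 in the Cre-labelled libraries. All 3 Cre-labelled libraries stood above all 3 control libraries, and the gap between the groups was far wider than the spread within either. The group means were 96.6 ± 20.8 and 479 ± 32.1 (SD, n = 3 each), a ratio of 4.96 and a log2 difference of 2.32 ± 0.18 (SE). By that difference *Elavl4* ranked 47 of 14840 genes that averaged at least 10 normalized counts. The control values rest on 108, 51 and 87 reads, with exact 95% Poisson intervals of 88.6 to 130, 38.0 to 67.1 and 69.7 to 107 reads for counting error only. Reads in the Cre-labelled libraries were 678, 526 and 575. Over 16 alternative analyses its log2 difference ran from 2.15 to 2.46.

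The other 3 *Elavl* genes lay on the opposite side. *Elavl1*, the ubiquitous paralog, had 675, 632 and 731 normalized counts in control and 537, 539 and 488 in the Cre-labelled libraries. *Elavl2* had 261, 262 and 287 in control and 198, 199 and 227 in the Cre-labelled libraries. *Elavl3*, a marker of early postmitotic neurons, had 64.2, 68.8 and 111 in control and 47.8, 53.4 and 51.0 in the Cre-labelled libraries. In each of these genes all 3 Cre-labelled libraries stood below all 3 control libraries. The log2 differences were -0.38 ± 0.12 for *Elavl1*, -0.38 ± 0.15 for *Elavl2* and -0.63 ± 0.26 for *Elavl3* (SE). *Elavl3* was the least precise of them, since control replicate 2 stood apart from the other control libraries and its 6 libraries held only 47 to 83 reads each. Without that library its log2 difference was -0.38.

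**Figure D1:**
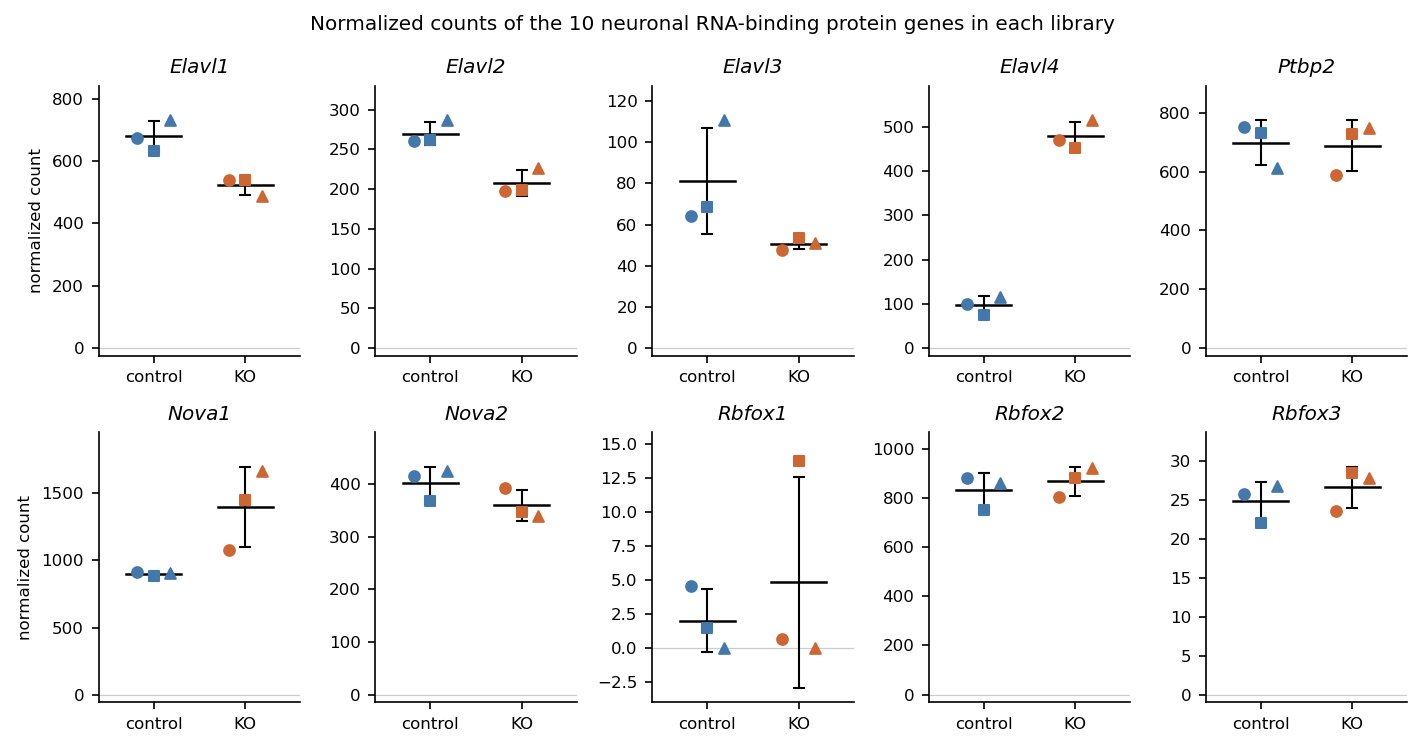
Normalized counts (vertical axes, each with its own scale) of the 10 genes in 3 control (blue) and 3 Cre-labelled (orange, KO) libraries. Circles are control 1 and KO 2, squares control 1_1 and KO 2_2, triangles control 2 and KO 3, and lines show the mean ± SD. *Elavl4* lies at 74.6 to 116 in control and at 453 to 515 in KO, while *Elavl1*, *Elavl2* and *Elavl3* lie lower in every KO library.

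Scaled by exon length, the make-up of the *Elavl* family differed between the groups more than its total. The normalized counts per kilobase of merged exons of the 4 genes summed to 191, 180 and 217 in control and to 222, 220 and 228 in the Cre-labelled libraries, so the nearest libraries of the groups were 217 and 220. *Elavl4* made up 9.64%, 7.68% and 9.91% of that sum in control and 39.2%, 38.1% and 41.9% in the Cre-labelled libraries. *Elavl1* made up 57.5% ± 1.52 of the sum in control and 38.7% ± 2.81 in the Cre-labelled libraries (SD, n = 3 each). The share of *Elavl2* was 25.3% ± 1.23 in control and 17.0% ± 1.02 in the Cre-labelled libraries, and that of *Elavl3* was 8.14% ± 1.78 and 4.52% ± 0.274. Because shares sum to a whole, a higher *Elavl4* share lowers the others by construction. The 3 neuronal paralogs together summed to 83.5 ± 11.0 per kilobase in control and 137 ± 8.82 in the Cre-labelled libraries. Per kilobase, *Elavl4* stood at 0.158 ± 0.0234 of the level of *Elavl1* in control and at 1.03 ± 0.129 in the Cre-labelled libraries.

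**Figure D2:**
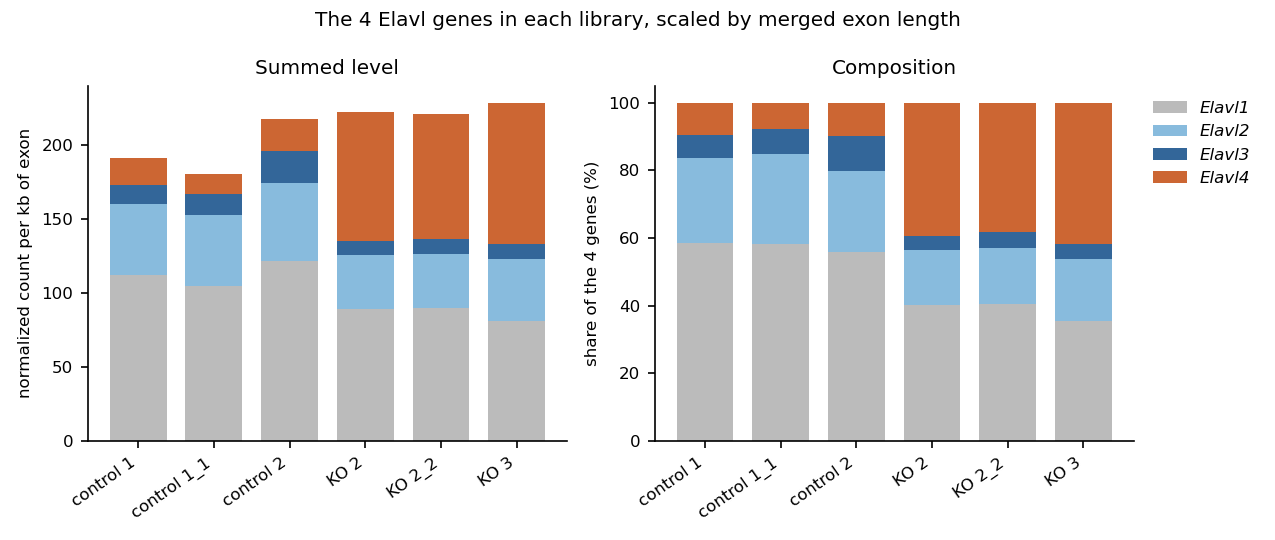
Normalized counts per kilobase of merged exons (left) and percent of the 4-gene sum (right) for *Elavl1*, *Elavl2*, *Elavl3* and *Elavl4* in each of the 6 libraries. The *Elavl4* part is 7.68% to 9.91% of the bar in control and 38.1% to 41.9% in KO, while the summed level is 180 to 217 and 220 to 228.

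*Nova1* was the other gene that stood higher. It had 910, 886 and 908 normalized counts in control and 1080, 1451 and 1671 in the Cre-labelled libraries. The control libraries were nearly level and the Cre-labelled libraries were spread out, with a coefficient of variation of 1.47% and 21.3%. All 3 Cre-labelled libraries stood above control, with means of 902 ± 13.2 and 1401 ± 298 (SD, n = 3 each), a ratio of 1.55 and a log2 difference of 0.61 ± 0.15 (SE). Over 16 alternatives the log2 difference ran from 0.47, without KO replicate 3, to 0.79, without KO replicate 2. *Nova2*, the paralog that is more abundant in cortical neurons, had 415, 369 and 425 normalized counts in control and 393, 347 and 339 in the Cre-labelled libraries, and the groups overlapped. Its log2 difference was -0.16 ± 0.14 (SE). Per kilobase, the ratio of *Nova1* to *Nova2* was 2.83, 3.10 and 2.75 in control and 3.54, 5.39 and 6.34 in the Cre-labelled libraries.

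The *Rbfox* genes were carried almost wholly by *Rbfox2*, the broadly expressed member. It had 880, 752 and 860 normalized counts in control and 802, 879 and 920 in the Cre-labelled libraries, with overlapping groups and a log2 difference of 0.06 ± 0.12 (SE). The sign turned without control replicate 1_1 (-0.0077). *Rbfox3*, the NeuN gene of mature neurons, was low in every library, at 25.7, 21.9 and 26.7 in control and 23.5, 28.4 and 27.8 in the Cre-labelled libraries. The groups overlapped, with a log2 difference of 0.10 ± 0.30 (SE) on 15 to 34 reads per library. Without control replicate 1_1 it was 0.016, and without KO replicate 2 it was 0.18. *Rbfox1*, which is abundant in postmitotic neurons, was near the floor with 5, 1 and 0 reads in control and 1, 16 and 0 in the Cre-labelled libraries. It was not tested, and a count of 0 has an exact 95% Poisson interval of 0 to 3.69 reads. KO replicate 2_2 alone held 16 of its reads, with an exact 95% Poisson interval of 9.15 to 25.98. *Rbfox2* made up 96.0% ± 0.337 of the family per kilobase in control and 95.4% ± 1.56 in the Cre-labelled libraries (SD, n = 3 each).

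*Ptbp2*, the neuronal paralog of PTBP1, had 752, 731 and 611 normalized counts in control and 589, 727 and 749 in the Cre-labelled libraries. The groups overlapped throughout, with a log2 difference of -0.02 ± 0.14 (SE) whose sign changed in 5 of 16 alternatives. *Ptbp1*, which represses neuronal exons in progenitors, had 1472, 1355 and 1440 in control and 923, 1099 and 1320 in the Cre-labelled libraries. All 3 Cre-labelled libraries stood below control, but the log2 difference of -0.37 ± 0.14 (SE) did not pass the test (limma adjusted p = 0.126). Without KO replicate 3 it was -0.50 and did pass (limma adjusted p = 0.033), and without KO replicate 2 it was -0.24 (limma adjusted p = 0.217). Per kilobase, the ratio of *Ptbp1* to *Ptbp2* was 1.39, 1.31 and 1.67 in control and 1.11, 1.07 and 1.25 in the Cre-labelled libraries.

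Of the 10 genes, 9 had a mean of at least 10 and 1, *Rbfox1*, did not. By limma at an adjusted p under 0.05, 4.74% of all 14840 genes were called higher, 5.22% lower and 9.96% in either direction. On that scale 2 of the 9, *Elavl4* and *Nova1*, lay past the threshold, both higher, which is a description since their values chose the set. The Cre-labelled libraries all stood above control for 2 of the 9 genes, against 14.7% of all genes, and all stood below control for 3, against 15.5%. The median log2 difference was -0.02 over the 9 genes and -0.0010 over all genes. Nothing is read from these counts.

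Ordered by level per kilobase, *Elavl4* changed its place more than any other of the 10 genes. In control the order was *Ptbp2* (207 ± 22.6), *Nova1* (129 ± 1.89), *Elavl1* (113 ± 8.23), *Rbfox2* (112 ± 9.31), *Elavl2* (49.4 ± 2.7004), *Nova2* (44.7 ± 3.35), *Elavl4* (17.9 ± 3.87), *Elavl3* (16.2 ± 5.10), *Rbfox3* (4.26 ± 0.429) and *Rbfox1* (0.477 ± 0.554, all means ± SD of normalized counts per kilobase, n = 3). The ranges of *Elavl1* and *Rbfox2* overlapped, as did those of *Elavl4* and *Elavl3*, and all other neighbours in this order were apart. In the Cre-labelled libraries, *Elavl4* stood at 88.9 ± 5.96, between *Rbfox2* at 117 ± 8.06 and *Elavl1* at 86.5 ± 4.81. There the ranges of *Elavl4* and *Elavl1* overlapped, as did those of *Ptbp2* (205 ± 25.8) and *Nova1* (200.1 ± 42.6) and those of *Nova2* (39.9 ± 3.24) and *Elavl2* (38.1 ± 2.97). *Elavl1*, *Elavl3*, *Elavl4*, *Nova1* and *Ptbp2* overlap no other RefSeq gene in GRCm38.p6. The other 5 genes each overlap at least 1, chiefly long noncoding RNAs. The library kit did not mark strand, so strand could not separate reads where such genes overlap.

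The markers of other cell types did not all differ in the same way. Sums of astrocyte and oligodendrocyte lineage markers were higher in the Cre-labelled libraries, while those of NSC and microglial markers overlapped between the groups. The cells kept telencephalic identity genes, with *Emx2* at 259 to 422 and *Lhx2* at 109 to 183 normalized counts, while *Emx1* had at most 1 read. Of 19 neuron markers, which took part in the choice of the set, 11 averaged at least 10 normalized counts, and the median of their log2 differences was -0.02. The summed normalized counts of the 19 were 18520 to 19815 in control and 15827 to 18180 in the Cre-labelled libraries, chiefly from *Map2* and *Gap43*. The markers did not share a level or a direction. *Map2* was abundant, at 9124, 9312 and 9194 in control and 10565, 11155 and 9903 in the Cre-labelled libraries, and all 3 of the latter stood above control. *Gap43*, also abundant, stood below control in all 3, whereas the groups overlapped for *Mapt* (0.34 ± 0.16) and *Uchl1* (0.23 ± 0.19, log2 differences ± SE). At the low end, *Stmn2*, *Nefh* and *Slc17a6* were at 0 in every library, and *Dcx* had 7.31 to 12.003 normalized counts in control and 1.72 to 4.16 in the Cre-labelled libraries. *Tubb3* had 26.6, 62.9 and 100.02 in control and 24.2, 86.1 and 109 in the Cre-labelled libraries. Of 11 astrocyte markers 10 were tested and 6 were called higher, with sums of 14778 to 16133 in control and 23596 to 28363 in the Cre-labelled libraries, although *Gfap* stayed at or under 10.3. *Aldh1l1* went the other way, with 18.4, 19.02 and 14.7 in control and 9.003, 2.58 and 4.48 in the Cre-labelled libraries, a log2 difference of -1.65 ± 0.51 (SE, limma adjusted p = 0.065). Of 12 oligodendrocyte lineage markers 7 were tested and 3 were called higher, with sums of 12900 to 14827 and 17819 to 20126. Of 10 NSC markers all were tested and 2 were called lower, *Nes* (log2 difference -0.85 ± 0.14, limma adjusted p = 0.0038) and *Sox1* (-2.27 ± 0.18, limma adjusted p = 3.66e-05), with sums of 33769 to 37518 and 32309 to 34195. The microglial gene *Tmem119* and the vascular genes *Cdh5*, *Cldn5* and *Pdgfrb* were at 0 in every library. Sums over 6 microglial markers were 164 to 206 in control and 167 to 274 in the Cre-labelled libraries, chiefly from *Csf1r*, and over 6 vascular markers 22.7 to 40.4 and 12.1 to 14.5. The part of these markers in the *Elavl4* difference was not tested. In bulk RNA, fewer cells of a type and less RNA per cell cannot be told apart.

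**Figure D3:**
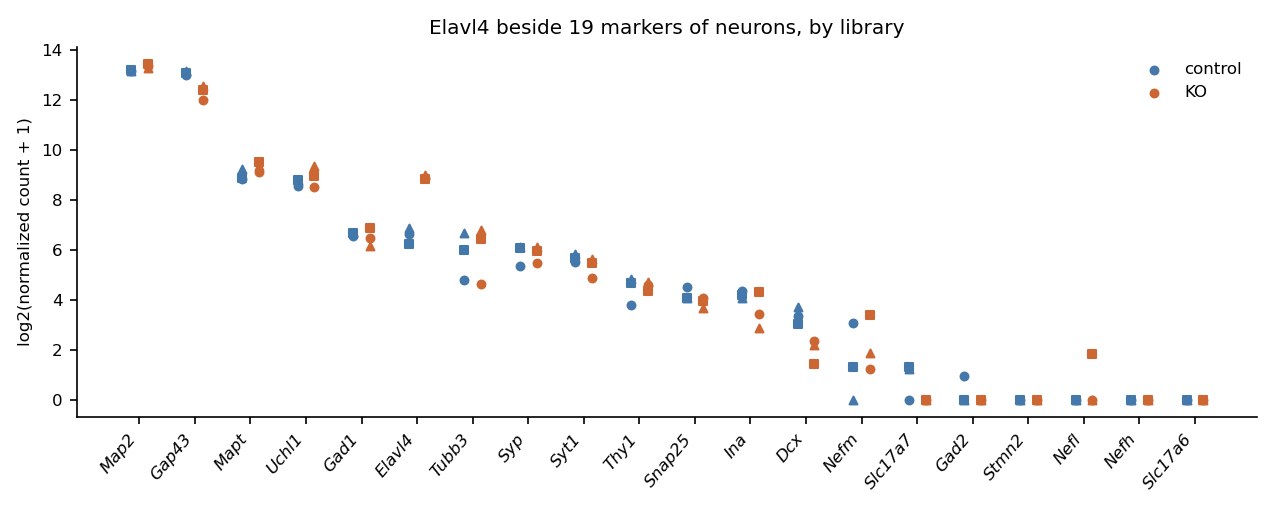
Log2(normalized count + 1) of *Elavl4* and 19 neuron markers (horizontal axis, ordered by control mean) in control (blue) and Cre-labelled (orange, KO) libraries, with the marker shapes of the plot of the 10 genes. *Elavl4* is the gene whose groups stand widest apart on the upper side, and *Stmn2*, *Nefh* and *Slc17a6* lie at 0 throughout.

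Other RNA-binding protein families gave a background of 40 genes, of which 34 were tested. Among them 4 were called higher and 2 lower, against 4.74% and 5.22% of all genes, with a median log2 difference of 0.02. *Igf2bp2*, which binds and stabilizes growth-related mRNAs, had 289, 303 and 268 normalized counts in control and 466, 749 and 648 in the Cre-labelled libraries. It rose by 1.09 ± 0.17 on the log2 scale (SE, limma adjusted p = 0.0034). Its paralog *Igf2bp3* differed by 0.07 ± 0.12, and *Igf2bp1* had at most 1 read per library. *Khdrbs3*, a STAR family splicing factor, had 1295, 1584 and 1212 in control and 765, 721 and 707 in the Cre-labelled libraries, a log2 difference of -0.89 ± 0.13 (limma adjusted p = 0.0020). These 2 genes kept their call in 16 of 16 alternatives.

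The CPEB proteins control polyadenylation and translation of stored mRNAs. All 4 genes had higher means in the Cre-labelled libraries, and 2 passed the test. *Cpeb3* had 57.8, 57.0 and 50.7 normalized counts in control and 83.8, 89.5 and 121 in the Cre-labelled libraries, a log2 difference of 0.80 ± 0.22 (SE, limma adjusted p = 0.045). *Cpeb4* had 445, 550 and 439 in control and 744, 752 and 607 in the Cre-labelled libraries, a difference of 0.55 ± 0.14 (limma adjusted p = 0.035). No library of one group crossed the other in either gene. *Cpeb1* at 1.06 ± 0.47 and *Cpeb2* at 0.50 ± 0.25 were not called. The call of *Cpeb3* was lost without any 1 of control replicates 1 (0.84), 1_1 (0.83) and 2 (0.74) and KO replicates 2_2 (0.86) and 3 (0.64). That of *Cpeb4* was lost without control replicate 1 (0.50) or 2 (0.49) or KO replicate 2_2 (0.50).

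Factors that bind AU-rich elements, the sites ELAVL proteins also use, moved both ways. *Zfp36*, which speeds the decay of such mRNAs, had 43.1, 86.3 and 92.0 normalized counts in control and 125, 163 and 185 in the Cre-labelled libraries, and rose by 1.14 ± 0.29 on the log2 scale (SE, limma adjusted p = 0.030). *Khsrp*, another decay factor, had 1045, 867 and 887 in control and 626, 541.5 and 638 in the Cre-labelled libraries, a log2 difference of -0.63 ± 0.13 (limma adjusted p = 0.012). The other 5 of the 7 were not called. The call of *Zfp36* was lost without control replicate 1 (0.80) or 1_1 (1.29) or KO replicate 2_2 (1.11) or 3 (1.02), and that of *Khsrp* without control replicate 1 (-0.55) or KO replicate 2_2 (-0.56).

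In the CELF, Muscleblind, PTB, Musashi, Fragile X, Pumilio and Staufen families 18 genes were tested, and limma, edgeR and DESeq2 each called 0 of them. At an unadjusted p under 0.05, limma had 4 of the 18, against 3778 of all 14840 tested genes. The 4 were *Mbnl2* (0.40 ± 0.15), *Ptbp1*, *Fxr1* (-0.26 ± 0.12) and *Fxr2* (-0.42 ± 0.13, log2 differences ± SE). *Mbnl3* and *Celf6*, of the same families, were too low to test. *Mbnl3* had 1, 0 and 0 reads in control and 18, 8 and 27 in the Cre-labelled libraries, and the latter all stood above control. *Celf6* had 1, 1 and 0 reads in control and 1, 3 and 14 in the Cre-labelled libraries, and the groups overlapped. *Qk*, which guides glial RNA processing, had 9831, 9362 and 8702 normalized counts in control and 12177, 13464 and 11742 in the Cre-labelled libraries. Its groups did not overlap, but the log2 difference of 0.42 ± 0.12 (SE) did not pass the test (limma adjusted p = 0.054). It passed without KO replicate 2 (0.44, limma adjusted p = 0.034) or 3 (0.46, limma adjusted p = 0.046). *Msi1*, a progenitor RNA-binding protein, differed by 0.03 ± 0.17 (limma adjusted p = 0.931). *Srrm3* and *Srrm4*, which drive neuronal microexons, had at most 1 read in any library.

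**Figure D4:**
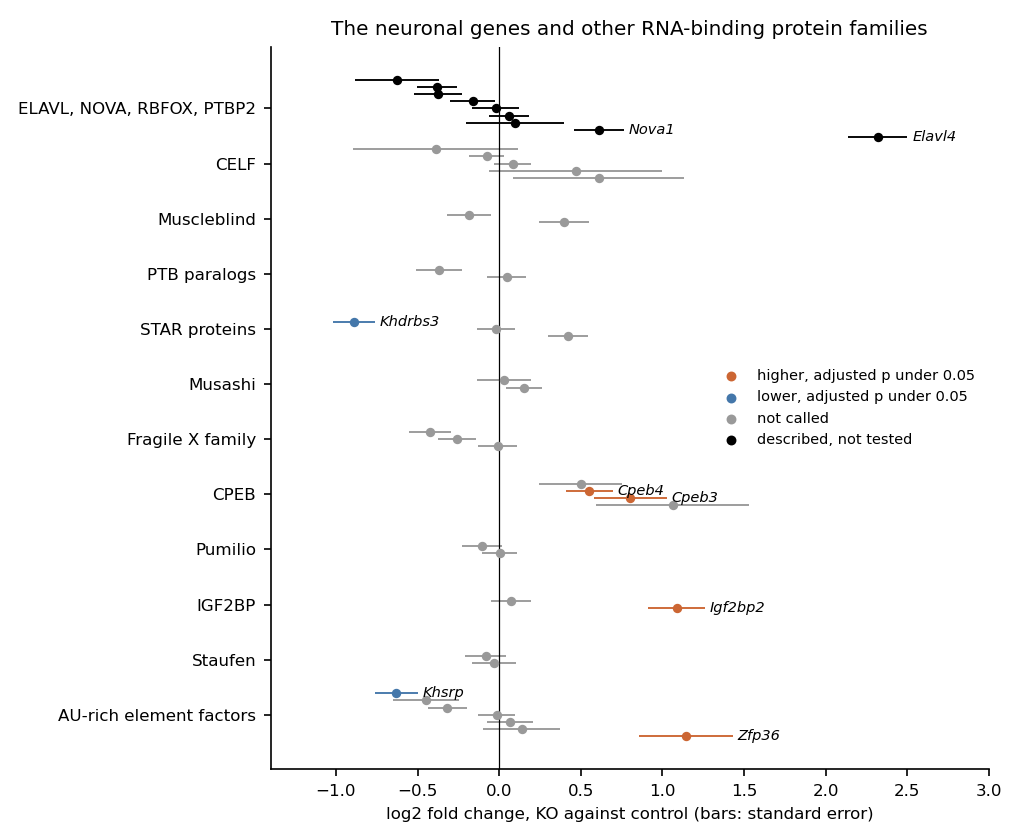
Log2 difference, Cre-labelled (KO) minus control, with its standard error for 9 of the 10 genes (top row) and 34 tested genes of other RNA-binding protein families. The 9 genes are drawn in black, as a description with no test, and of the other families orange points were called higher, blue lower and grey neither. *Elavl4* at 2.32 lies beyond all others drawn, of which *Zfp36* at 1.14 is the highest, and genes too low to test are not drawn.

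The mRNAs that ELAVL4 or its paralogs are known to bind did not share a direction. Of 11 such genes 9 averaged at least 10 normalized counts, with a median log2 difference of 0.12. Leaving aside the neuron markers *Gap43* and *Mapt*, 1 was called higher and 1 lower. *Nrn1*, encoding the neurite-growth protein neuritin, had 177, 209 and 129 normalized counts in control and 419, 271 and 380 in the Cre-labelled libraries, a log2 difference of 1.05 ± 0.22 (SE, limma adjusted p = 0.011). *Gap43*, the growth cone gene bound by ELAVL4, had 8287, 8685 and 9162 in control and 4095, 5414 and 6080 in the Cre-labelled libraries. Its log2 difference was -0.76 ± 0.15, with no test given because it is also one of the neuron markers. *Cdkn1a*, encoding the cell cycle inhibitor p21, had 3675, 3323 and 4126 in control and 2612, 2825 and 2683 in the Cre-labelled libraries, a difference of -0.45 ± 0.12 (limma adjusted p = 0.037). Among the rest, *Mapt* differed by 0.34 ± 0.16, *Bdnf* by 0.18 ± 0.26 and *Myc* by -0.08 ± 0.33. Leaving out control replicate 2 ended the call of *Nrn1* (0.86). The call of *Cdkn1a* ended without any 1 of control replicates 1 (-0.45), 1_1 (-0.53) and 2 (-0.37) and KO replicates 2_2 (-0.48) and 3 (-0.44).

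Transcription factors of neurogenesis were mostly too low to test, 6 of 16 having a mean of at least 10. *Myt1*, a zinc finger factor of neuronal and oligodendroglial differentiation, was the 1 called, with 100.9, 100.9 and 93.4 normalized counts in control and 142, 158 and 165 in the Cre-labelled libraries. It rose by 0.65 ± 0.17 on the log2 scale (SE, limma adjusted p = 0.038). That call was lost without any 1 of control replicates 1 (0.67), 1_1 (0.67) and 2 (0.61) and KO replicates 2_2 (0.63) and 3 (0.60). *Rest*, the repressor of neuronal genes outside neurons, differed by 0.20 ± 0.16 (limma adjusted p = 0.469), with 0.014 without KO replicate 2_2 and 0.33 without KO replicate 2. Of the genes under the limit, the proneural factor *Neurog2* was at 0 in every control library and at 4.85, 19.8 and 19.7 in the Cre-labelled libraries. *Eomes*, a marker of intermediate progenitors, was at 0, 1.46 and 0 in control and at 9.003, 10.3 and 12.5 in the Cre-labelled libraries. These 2 genes were named after their values were seen. *Neurog1* and *Neurod6* were at 0 in every library.

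*Elavl4* spans chr4:110203737-110351939 on the minus strand of GRCm38.p6, and 1 of its neighbours also differed. *Dmrta2*, a transcription factor of dorsal telencephalic progenitors, lies 220 kb from *Elavl4* at chr4:109977989-109983691. It had 44.0, 29.3 and 37.3 normalized counts in control and 321, 397 and 313 in the Cre-labelled libraries. The means were 36.9 ± 7.41 and 344 ± 46.1 (SD, n = 3 each), and it rose by 3.20 ± 0.21 on the log2 scale (SE, limma adjusted p = 7.53e-06). *Faf1*, the next gene on that side at 240 kb, had 390, 616 and 379 in control and 373, 421 and 373 in the Cre-labelled libraries, with a difference of -0.21 ± 0.19 (limma adjusted p = 0.521). On the other side, *Agbl4* at 45.7 kb had at most 3 reads in any library. *Bend5*, which lies within *Agbl4*, differed by -0.09 ± 0.15 (limma adjusted p = 0.749).

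**Figure D5:**
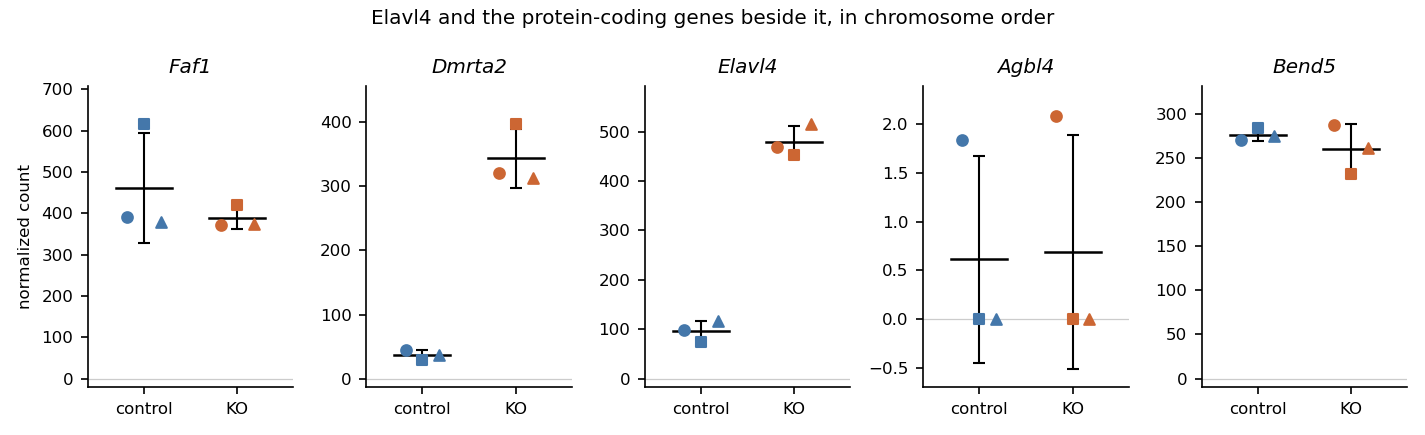
Normalized counts (vertical axes, each with its own scale) of *Elavl4* and the 4 protein-coding genes beside it, in chromosome order, in 3 control (blue) and 3 Cre-labelled (orange, KO) libraries, with mean ± SD. *Dmrta2* lies at 29.3 to 44.0 in control and at 313 to 397 in KO, while *Faf1*, *Agbl4* and *Bend5* overlap between the groups.

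Over the 6 libraries, 583 of 11127 genes with a mean of at least 50, the 8 members of the set above that mean left out, had a Pearson correlation with *Elavl4* of at least 0.9 on the log2 scale, and these points share the split into 2 groups. The 5 genes with the highest correlation were *Adgrl3* (0.999), *Kcna6* (0.997), *Brinp3* (0.997), *Ramp1* (0.997) and *Adhfe1* (0.997). *Ramp1*, which encodes a partner of the calcitonin receptor-like receptor, had 37.6, 19.02 and 36.0 normalized counts in control and 346, 327 and 343 in the Cre-labelled libraries. *Kcna6*, a voltage-gated potassium channel gene, had 74.3, 57.0 and 85.4 in control and 235, 256 and 245 in the Cre-labelled libraries. In all 5 genes, as in *Elavl4*, control replicate 1_1 was the lowest library, a likeness that their choice by correlation favours. *Adgrl3*, a latrophilin adhesion receptor gene, had a smaller difference, with 546, 497 and 571 in control and 836, 801 and 847 in the Cre-labelled libraries.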

How the data were processed

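RNA-seq was analysed in 3 control and 3 Cre-labelled libraries, grouped by the submitters' labels. Total RNA was made into libraries with a TruSeq kit that does not mark strand. The authors' methods name TopHat with mm9 and mm10 and DESeq2, whereas the submitters' processing notes name STAR 2.7, mm10 and DESeq2. The read counter, strand setting and annotation are not given in the sources used here. The values the authors deposited are normalized counts, a signal equal to the read count of a gene divided by a size factor. The fold changes and p-values of the authors' own comparison were in the deposited table and were not used. In each library 100% of values were whole multiples of 1 read, within a tolerance of 0.001. Of 53379 genes, 873 had no name and 1 had a missing value and was left out.

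The test was limma 3.58.1 (lmFit, eBayes with trend, R 4.3.3) on log2(normalized count + 1), for 14840 genes that averaged at least 10 normalized counts. P-values were adjusted by the Benjamini-Hochberg method, with a threshold of 0.05. The fit was tested on simulated counts of independent libraries, with the same spread setting for every gene. That test gives no measure of how the fit does where libraries share a culture. Log2 differences are on this scale and understate those of low genes. Alternatives were edgeR 4.0.16 and DESeq2 1.42.0 on the recovered reads, which called 1483 and 1755 genes, 2 other scalings, pseudocounts of 0.5 and 5, no filter, a mean of at least 50, libraries 1 and 1_1 or 2 and 2_2 averaged, each library left out, and an adjusted p under 0.1. Levels were divided by merged exon lengths of GENCODE M1 (mm9), or by the longest transcript. Promoters came from RefSeq (GRCm38.p6). The 10 genes and all lists were chosen with earlier results of these data known. Named genes were the 10 genes, genes of the companion, bound and transcription factor lists past the threshold, *Ptbp1*, *Msi1*, *Qk* and *Rest*, the 5 genes most correlated with *Elavl4* and its neighbours. Other genes, markers included, were named after their values were seen. Figures used matplotlib 3.10.9.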

Additional observations from a re-analysis of the deposited data

How the results depend on the processing

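No paired analysis was possible because the groups share only 1 replicate number. The number of genes called, 1478, was 660 with control replicates 1 and 1_1 averaged and 2380 at an adjusted p under 0.1, and ranged from 558 to 2396 when 1 library was left out, the first without control replicate 1 and the last without KO replicate 2. Of the other RNA-binding protein genes, 6 were called, against 3 with control replicates 1 and 1_1 averaged and 2 to 10 without 1 library. As a description only, since their values chose them, 2 of the 10 neuronal genes lay past the threshold, against 1 (*Elavl4*) with control replicates 1 and 1_1 averaged and 1 to 2 without 1 library. The log2 difference of *Rbfox2* ran from -0.0077 to 0.12 without 1 library. That of *Ptbp2* was 0.024 with control replicates 1 and 1_1 averaged, 0.014 with KO replicates 2 and 2_2 averaged, and -0.12 to 0.086 without 1 library. That of *Msi1* was -0.017, -0.010 and -0.044 to 0.13 under the same changes. With the longest transcript as length, *Elavl4* made up 10.7% of the *Elavl* sum in control and 44.1% in the Cre-labelled libraries. The cause of these shifts was not tested. The fits that left out or averaged libraries also held fewer of them, and the part of this in the shifts was not tested either. With control replicates 1 and 1_1 averaged, *Cpeb3*, *Cpeb4*, *Zfp36*, *Cdkn1a* and *Myt1* lost their calls. *Cpeb3*, *Cdkn1a* and *Myt1* lost theirs without the filter on low genes, *Cdkn1a* with scaling to the total count and *Cpeb4* with KO replicates 2 and 2_2 averaged, whereas *Qk* gained a call with DESeq2 and at a mean of at least 50. *Rbfox3* gave no value at a mean of at least 50. The depth limits *Rbfox1* and the low transcription factors.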
